A study of Mus musculus with 4 samples.

Results

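Cajal-Retzius neurons were examined in single-nucleus RNA sequencing of the adult mouse hippocampus. A droplet barcode was taken as a Cajal-Retzius nucleus when it held at least 3000 unique molecular identifiers (UMIs, 1 per captured RNA molecule), at least 5 UMIs of Reln, at least 1 UMI of 2 or more of Trp73, Ndnf, Lhx5, Lhx1 and Cacna2d2, and at most 1 UMI of Gad1 and Gad2 together. The nuclei were thus chosen by measured counts of these 8 genes. This rule found 311 nuclei among the 37933 barcodes with at least 3000 UMIs. The levels of the rule's genes describe that choice and are given with no test, as are differences between these nuclei and the rest.

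The 4 libraries were 2 Control (Kat6a-f/f, both copies of Kat6a flanked by recombination sites) and 2 Kat6a-cKO, in which NEX-cre was added to Kat6a-f/f. All mice carried the floxed alleles and the label for age is adult. NEX-cre places the recombinase at Neurod6, which forebrain excitatory neurons express, so deletion of Kat6a, which encodes a histone acetyltransferase, is directed to those neurons rather than to every cell. The labels do not say whether a library is 1 animal or a pool, nor whether libraries of a group came from separate litters, so p-values measure the spread between these libraries.

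Cajal-Retzius neurons are among the earliest neurons of the cortex and lie in its outermost layer. They secrete reelin, an extracellular glycoprotein that binds the receptors ApoER2 (Lrp8) and VLDLR on migrating and mature neurons and leads to phosphorylation of the adaptor Dab1. Many arise from the cortical hem under the transcription factor p73 (Trp73), release glutamate through the vesicular transporter VGLUT2 (Slc17a6), and in rodents most die after birth, while a population persists in the hippocampus. Reelin is also made by GABAergic interneurons of the same layer, which the limit on Gad1 and Gad2 keeps out.

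The nuclei numbered 78 and 70 in the Control libraries and 76 and 87 in the Kat6a-cKO libraries. Summed over nuclei, the Control libraries held 524910 and 434431 counts and the Kat6a-cKO libraries 482561 and 514219. These nuclei were shallow. Control nuclei had a median of 4832.5 and 4653 UMIs and Kat6a-cKO nuclei 4228.5 and 4278, against 12520.5 to 13512 in the other 37622 nuclei. It was 16601 to 17961 in the 989 nuclei with at least 5 Reln UMIs and at least 2 UMIs of Gad1 and Gad2, the interneurons that share Reln. Library totals ran from 171323466 to 186897245 counts. Between 21 and 28 of the barcodes with at least 3000 UMIs were shared by any pair of libraries, and 0 of these were Cajal-Retzius nuclei. Mitochondrial genes held 0.0984% to 0.141% of the counts of Cajal-Retzius nuclei.

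The identity was checked on genes the rule did not read. Ebf3, a helix-loop-helix transcription factor of these neurons, had a UMI in 244 of 311 nuclei (78.5%, exact Clopper-Pearson 95% interval 73.5% to 82.9%). It was seen in 1.31% of the interneurons and 0.444% of the other nuclei, although those were deeper. Slc17a6 was seen in 49.2% of Cajal-Retzius nuclei, 2.22% of interneurons and 5.88% of other nuclei. Nhlh2, another helix-loop-helix factor, was seen in 27.3%, 0.202% and 0.808%. Calb2 and Cxcr4, also known genes of these neurons, were seen in 13.2% and 11.3% of Cajal-Retzius nuclei. They were seen in 3.34% and 6.07% of interneurons and in 1.91% and 0.595% of other nuclei. Eln, which encodes elastin, was seen in 70.7%, 5.36% and 2.47%. It was not listed as a known gene but leads the ranking of these same nuclei below, so its value is a description. Intervals cover counting error only, and free RNA was not subtracted.

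Among the rule's own genes, Ndnf was seen in 99% of the nuclei, Cacna2d2 in 92.6%, Trp73 in 76.5%, Lhx1 in 25.7% and Lhx5 in 24.4%. Of the 311 nuclei, 57 had 2 of the 5 marker genes, 158 had 3, 78 had 4 and 18 had 5. The 73 nuclei without a Trp73 UMI had Ebf3 in 69.9% and Dach1 in 97.3%, against 81.1% and 100% of the 238 with Trp73, at median depths of 4050 and 4511.5 UMIs. Of the 40 nuclei without Trp73, Lhx5 and Lhx1, which entered through Ndnf and Cacna2d2, 31 had Ebf3.

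At the edges of the rule, 3 members had under 10 Reln UMIs, with a lowest value of 8, and 0 barcodes that met the rest had 3 or 4. A further 25 barcodes had 1 marker gene in place of 2, and 4 of these had Ebf3. There were 6 barcodes with 2 Gad1 and Gad2 UMIs, all 6 with Trp73 or Ebf3, and 132 with 3 or more. Among the members 33 had 1 such UMI. Another 28 barcodes with at least 1500 but under 3000 UMIs met the rest of the rule. Of the members, 1 nucleus of Kat6a-cKO replicate 1 had 11367 UMIs and 11 of Reln, and 1 of Kat6a-cKO replicate 2 had 5352 and 8. Both had 0 UMIs of Trp73, Ebf3, Dach1 and Tmem163, and entered through Ndnf and Cacna2d2. Their identity is uncertain, and they were kept in the sums.

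A minority of the nuclei was far deeper. In all, 36 nuclei (10 and 8 in Control, 8 and 10 in Kat6a-cKO) exceeded 2 times the median UMI count of their library. They made up 11.6% of the nuclei and 37.1% of the counts, with a median of 16673 UMIs against 4278 in the other 275. Reln did not scale with this depth: the median was 38.5 UMIs per nucleus in the deep nuclei and 41 in the rest, and for Ndnf it was 7 and 8. Scrublet, which scores barcodes by likeness to simulated pairs of nuclei, called 15 of the 36 and 5 of the 275 as doublets. As a share of counts, most markers of principal neurons were higher in the deep nuclei, and most of interneurons were lower. Levels are in CPM, counts scaled to a sum of 1000000. Of 8 pyramidal markers 7 were higher and 1 lower, with sums of 1347 CPM in the deep nuclei and 577 in the rest. They ranged from Camk2a, a kinase of excitatory neurons, at 595 against 59.4, to Nrgn at 168 against 266, with Slc17a7 at 125 against 66.7 and Neurod6 at 26.1 against 16.3. All 5 granule neuron markers were higher, with sums of 678 against 237, among them the transcription factor gene Prox1 at 106 against 19.5. Of 9 GABAergic markers 1 was higher and 7 were lower, with sums of 77.1 against 169, where the rule's limit on Gad1 and Gad2 holds at any depth. Tbr1, a transcription factor gene of Cajal-Retzius and other glutamatergic neurons, was lower, at 23.4 against 61. Chosen after their values were seen, Csmd1 was at 4815 against 135 and Ryr2, an intracellular calcium channel, at 1464 against 56.1. The rule kept these nuclei, so levels below are given with all 311 nuclei and, where it matters, with the 275.

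**Figure D1:**
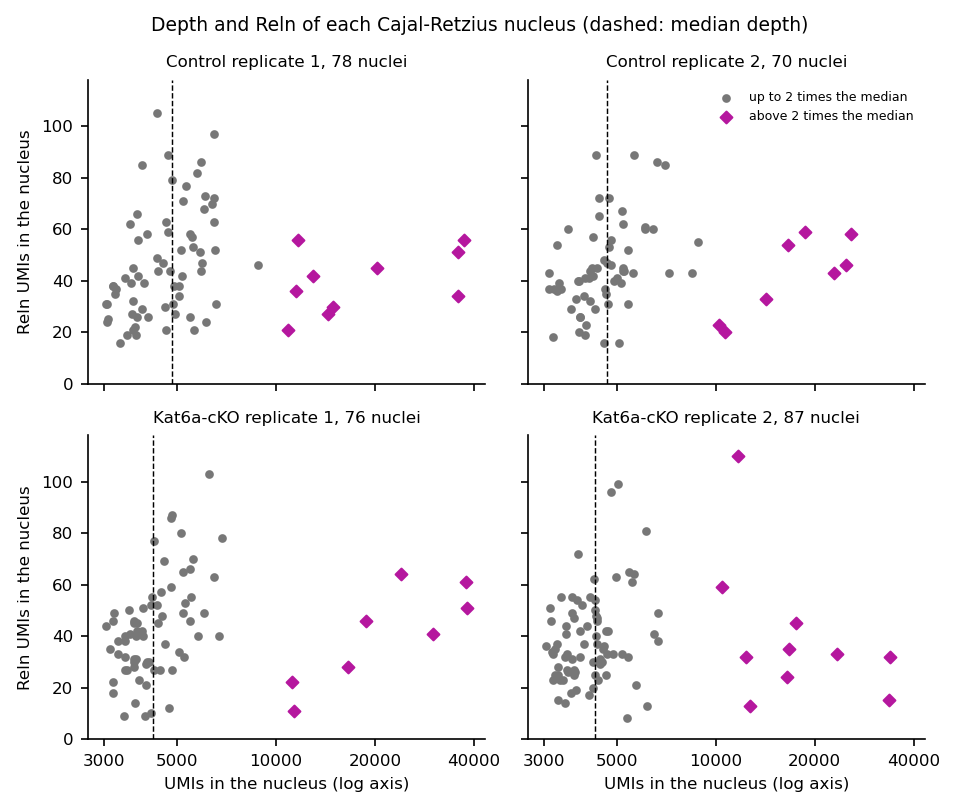
Each point is 1 Cajal-Retzius nucleus, with its UMI count on the horizontal log axis and its Reln UMIs on the vertical axis, in 1 panel per library. The 36 nuclei above 2 times the median depth (diamonds) lie to the right of the dashed median but in the same range of Reln UMIs as the other 275.

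The genes that set these nuclei apart were ranked by the ratio of mean CPM over the other nuclei, with 5 added to each value, among genes with at least 20 CPM in every library. All 30 leading genes stayed in the first 30 when the 36 deep nuclei were left out. Levels below are CPM of the library sum, in the order Control replicates 1 and 2, then Kat6a-cKO replicates 1 and 2, and means are ± SD over the 4 libraries.

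The genes are described by role and not by rank, and first those for secreted and matrix proteins. Reln (chr5:21884454-22344702 of GRCm38, minus strand) was at 6835, 7219, 6735 and 6589 CPM against a mean of 43.5 ± 5.97 in the other nuclei, so that 311 nuclei held 35.9% of all Reln counts in nuclei. Ndnf (chr6:65671590-65712326), a secreted neurotrophic factor, was at 1579, 1542, 1262 and 1425 CPM against 6.4 ± 0.426, with 44.7% of its counts. These levels describe the choice of nuclei. Eln stood at 226 ± 15.7 CPM against 2.02 ± 0.181, and Angpt1, a ligand of the endothelial receptor Tie2, at 361 ± 23.4 against 14.7 ± 1.74. The chemokine Cxcl12 and its receptor Cxcr4, which are not among the 30, are given for their known role. Cxcl12 was at 109, 62.2, 97.4 and 58.3 CPM against 9.75 ± 1.5, and Cxcr4 at 23 ± 7.67 against 0.458 ± 0.108. CXCL12 from the meninges guides Cajal-Retzius neurons along the surface of the developing brain through CXCR4. In droplets under 100 UMIs, whose counts come from free RNA, Cxcl12 was at 65.6 CPM, close to its level in these nuclei, and Cxcr4 at 3.8.

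Transcription factors and a cofactor form a second role. Ebf3 (chr7:137193673-137314445) was at 284, 325, 294 and 336 CPM against 0.407 ± 0.142, and 72.9% of its counts (exact 95% interval 69.7% to 75.9%) fell in these 311 nuclei. Trp73 (chr4:154056253-154140208) was at 371, 285, 336 and 296 CPM against 0.967 ± 0.116, with 54.3% of its counts. Ebf3 overlapped between the genotypes. The LIM-homeodomain factors Lhx1 and Lhx5, with 15 to 29 and 19 to 26 counts per library, were at 50.2 ± 13.4 and 44.5 ± 4.42 CPM against 0.0201 and 0.0473, and these nuclei held 89.9% and 77% of their counts. Dach1, a nuclear cofactor of development, was at 1442, 1547, 1422 and 1663 CPM against 26.5 ± 4.99. Nhlh2 was at 58.9 ± 11.3 against 0.614 ± 0.0786 and Nr2f2 (COUP-TFII) at 110 ± 17.9 against 9.98 ± 1.77.

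Noncoding transcripts beside the LIM factors had most of their counts in these nuclei. Gm27199, annotated as antisense RNA at chr5:120419659-120431767, runs from the start of Lhx5 (chr5:120431699-120441223) in the opposite direction. It was at 194, 189, 172 and 161 CPM against 0.0528 ± 0.0112, and 92.3% of its counts were in the 311 nuclei. Lhx1os (chr11:84525660-84535831), which lies beside Lhx1 (chr11:84518284-84525535) on the other strand, was at 37.7 ± 5.56 CPM against 0.0237, with 85.1% of its counts. The strand used in counting is not given in the sources used here, so reads over the short overlap of Gm27199 and Lhx5 cannot be assigned to either gene.

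Another role is that of membrane proteins and enzymes. Hs3st5, an enzyme that sulfates heparan chains, was at 991 ± 100 CPM against 23.4 ± 3.72, and the zinc-binding membrane protein Tmem163 at 876 ± 79.6 against 20.2 ± 5.11. Shisal2b was at 149 ± 17.8 against 0.37 ± 0.0716, with 59.1% of its counts, and Utrn, the dystrophin relative utrophin, at 1512 ± 168 against 51.6 ± 6.99. Both Hs3st5 and Utrn were also high in the Reln-positive interneurons, at 235 ± 9.19 and 473 ± 28.7 CPM, while Tmem163 was at 5.18 ± 0.8 there. Cd274, which encodes the immune checkpoint ligand PD-L1, was at 55.2, 120, 70.5 and 72 CPM against 0.323 ± 0.179 in other nuclei and 8.54 in droplets under 100 UMIs. Other leading genes were Gm29683, Lrig3, Pik3c2g, Cdh4, Myzap, Tram2, Vmn2r1, Gm18294, Gm31938, Plekha7, E130114P18Rik, B130024G19Rik, Gm49027, Ggt5 and the rule gene Cacna2d2. Vmn2r1 and the pseudogene Gm18294 belong to a family of close copies, so their counts are uncertain.

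**Figure D2:**
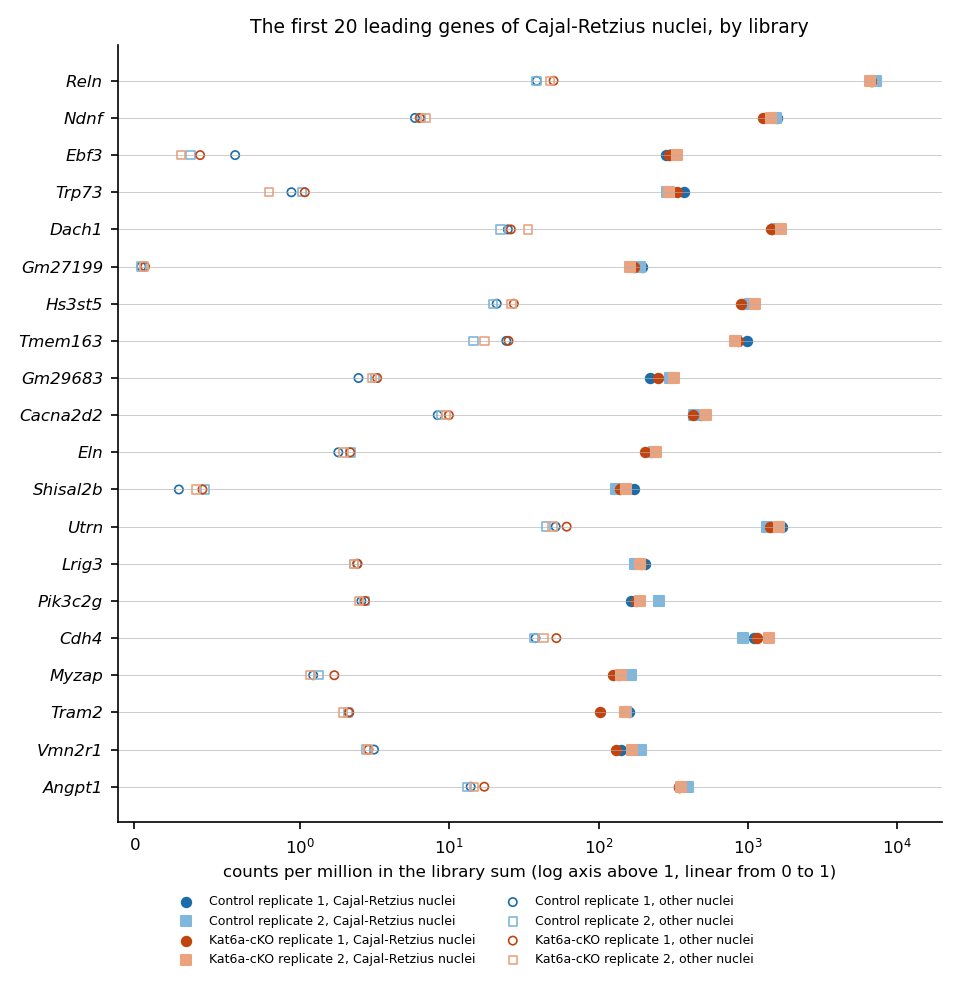
CPM of the first 20 leading genes, 1 row per gene, in Cajal-Retzius nuclei (filled) and in the other nuclei (open) of each library, on an axis that is logarithmic above 1. For each of the 20 genes the 4 filled points lie to the right of the 4 open points, as the ranking requires, and the libraries lie close together.

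Lists of genes are described by counts, with no test. A gene was counted where its mean reached 20 CPM in either the Cajal-Retzius or the other nuclei, so that genes low on one side were kept. Over all 6986 such genes, 503 were at least 2-fold above the other nuclei and 507 at least 2-fold below, with a median log2 ratio of 0.17. A list of 20 genes tied to Cajal-Retzius neurons outside the rule was chosen as known genes of these cells. The choice was made with earlier results of these data known, and leading genes such as Tmem163 are on the list. Of the 20, 12 were counted and 11 were 2-fold above, with 8 below the minimum on both sides. In the 275 nuclei 11 were 2-fold above and 1 was 2-fold below. Calb2, which encodes calretinin, a calcium-binding protein often used to stain these cells, was at 24.8, 23, 24.9 and 25.3 CPM against 1.63 ± 0.4, and was seen in 13.2% of the nuclei. Mab21l1 had 0 counts in all nuclei.

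Reelin pathway genes were near their level in the other nuclei. Of 12 listed genes 10 were counted, 0 were 2-fold above and 1 was 2-fold below the other nuclei, with a median log2 ratio of 0.19. The gene below was Dab1, the intracellular adaptor of reelin signalling, at 1739, 1268, 1393 and 1466 CPM against 3494 ± 122. Of its counts in these nuclei 84.7% lay in the 36 deep nuclei, and it stood at 358 ± 98.5 CPM in the other 275. The receptor genes Lrp8 and Vldlr were at 38.3 ± 9.95 and 14.8 ± 3.1 CPM against 32.9 ± 1.73 and 23 ± 2.03.

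Among transmitter and chloride transporters, the VGLUT2 gene was high and the KCC2 gene low. Slc17a6 was at 149, 140, 106 and 165 CPM against 7.39 ± 1.27 in the other nuclei. Slc17a7, the VGLUT1 gene of cortical and hippocampal principal neurons, was at 88.5 ± 20.5 CPM against 138 ± 15.4 and 202 in droplets under 100 UMIs. Slc12a5, the gene of the exporter KCC2 that keeps chloride low in mature neurons, was at 80, 52.9, 45.6 and 29.2 CPM against 106 ± 8.65, and at 26.6 ± 17.9 in the 275 nuclei. The importer gene Slc12a2 (NKCC1) was at 46.8 ± 24.2 against 62.3 ± 4.52. A different cotransporter gene of the family, Slc12a7 (KCC4), was at 32.4, 18.4, 20.7 and 29.2 CPM against 0.906 ± 0.0884. Of the 8 listed transporters 5 were counted. Slc17a6 and Slc12a7 were 2-fold above and 0 were 2-fold below, 1 in the 275 nuclei.

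Glutamate receptor genes were mostly low. Of 25 listed receptors 20 were counted, 1 was 2-fold above and 11 were 2-fold below the other nuclei, with a median log2 ratio of −1.12, and −1.88 in the 275 nuclei. The gene above was Gria4, an AMPA receptor subunit, at 914, 1068, 955 and 871 CPM against 330 ± 31.8. It was at 1257 ± 149 in the 275 nuclei, and higher still in the Reln-positive interneurons, at 1567 ± 58.5. The NMDA receptor subunit Grin2a was at 1153, 1144, 1030 and 1243 CPM against 2899 ± 149, and 92.4% of those counts came from the 36 deep nuclei. Without them Grin2a stood at 137 ± 61.6, Grin2b at 136 ± 14.5 against 1832 ± 69.2, and the metabotropic receptor gene Grm5 at 106 ± 20.7 against 2588 ± 52.2. Droplets under 100 UMIs held 1802, 1161 and 1581 CPM of these 3 genes. The AMPA subunits Gria1 and Gria2 were less far below, at 1722 ± 96.7 and 1258 ± 130 against 2396 ± 102 and 1833 ± 52.6.

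Of 18 receptors for GABA and glycine, 14 were counted, 0 were 2-fold above and 2 were 2-fold below, a count that became 7 in the 275 nuclei. Gabrb1 was at 427 ± 116 CPM against 1221 in the other nuclei, and at 70.1 without the deep nuclei. Glrb, the beta subunit of the glycine receptor, was at 143 ± 17.5 against 112.

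Potassium and calcium channel genes lay on both sides. Of 33 voltage-gated channel genes 32 were counted, 5 were 2-fold above and 7 were 2-fold below, with a median log2 ratio of −0.35. Kcnh7, a potassium channel of the ERG family, was at 4591, 4613, 4515 and 4294 CPM against 996 ± 110. Kcnb2, a delayed rectifier, was at 3654, 4155, 4026 and 3994 against 864 ± 9.84. The libraries differed little, and both genes were higher still in the 275 nuclei, at 5863 ± 513 and 5337 ± 325. Cacna2d1, an auxiliary calcium channel subunit, stood at 2375 ± 200 against 946 ± 25.3, and Kcnc2 at 1240 ± 107 against 588 ± 33.3. Kcnc2 was higher in the Reln-positive interneurons, at 2240 ± 51.4, where Kcnh7 and Kcnb2 were at 984 ± 121 and 857 ± 31.6. Hcn4, a pacemaker channel gene, was at 32.4, 9.21, 31.1 and 29.2 CPM against 0.739 ± 0.125, lowest in Control replicate 2. Kcnd2 was at 1370 ± 177 against 3421, and at 170 in the 275 nuclei.

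Adhesion and guidance genes were mixed. Of 35 listed genes 32 were counted, 5 were 2-fold above and 18 were 2-fold below the other nuclei. Cntnap2, a neurexin relative, was at 11282, 11189, 10598 and 11085 CPM against 3336 ± 345. Robo2, a receptor for the guidance ligands SLIT, was at 3608, 3004, 2700 and 2853 against 648 ± 16.5. Both were higher in all 4 libraries than in the other nuclei of any library. Cdh4 (R-cadherin) was at 1094, 925, 1160 and 1385 against 42.4 ± 6.98, and the ephrin receptor gene Epha3 at 888 ± 32.6 against 291 ± 18.3. On the low side, Nlgn1 (neuroligin 1) was at 315 ± 70.4 CPM in the 275 nuclei against 4959 ± 88.8, and Nrxn3 at 274 ± 152 against 5145 ± 302.

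**Figure D3:**
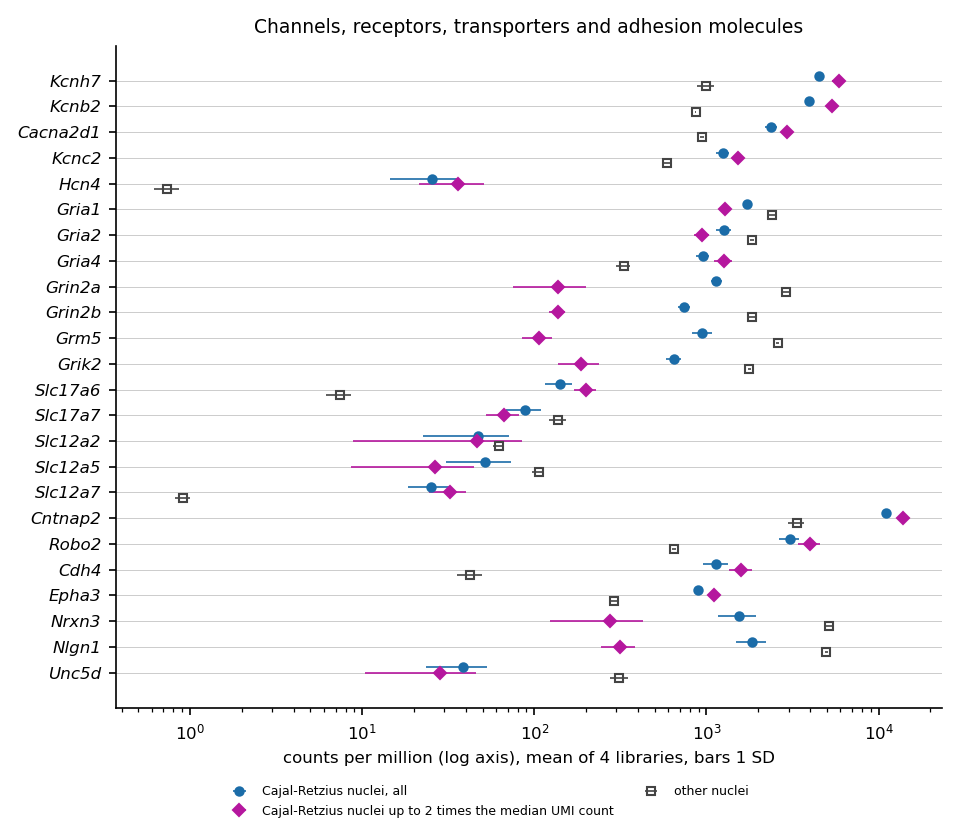
Mean CPM with 1 SD over 4 libraries, on a log axis, for 24 channel, receptor, transporter and adhesion genes in all Cajal-Retzius nuclei (circles), in the 275 of lower depth (diamonds) and in the other nuclei (squares). Leaving out the deep nuclei lowers genes such as Grin2a, from 1142 to 137, and raises genes such as Kcnh7, from 4503 to 5863.

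Several smaller lists gave the following. Of 39 Wnt and R-spondin genes 15 were counted, 2 were 2-fold above and 2 below. Those above were Rspo3, a secreted amplifier of Wnt signals, at 58.1 ± 20.3 CPM against 15.4 ± 0.722, and the ligand gene Wnt7b at 29.7 ± 9.55 against 6.41 ± 0.471. Those below were Rspo2, at 16.6 ± 3.97 against 55.1 ± 8.08, and Tcf7l2, a transcription factor gene of the pathway, at 8.5 ± 3.61 against 23.3 ± 4.24 and 71 in droplets under 100 UMIs. Of 14 cell death and p53 family genes 5 were counted and 0 were 2-fold apart, with Mdm2, the p53 ubiquitin ligase, at 131 ± 27.4 against 73.6. Of 4 chemokine genes 3 were counted, and Cxcl12 and Cxcr4 were 2-fold above. Of 8 genes of the KAT6A complex 5 were counted and 0 were 2-fold apart, with Kat6b, the paralog of Kat6a, at 420 ± 34.2 CPM against 253 ± 9.12. Of 10 immediate early genes 1 was counted, Jun at 20.5 ± 3.08 against 16.2. Of 16 genes tied to RNA quality 12 were counted and 0 were 2-fold apart. In the 275 nuclei 4 Wnt and R-spondin genes were 2-fold above and 1 below, and 2 cell death genes and 4 RNA quality genes were 2-fold above. Over all 6986 genes 898 were 2-fold above there and 863 below.

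Markers of other cells were present, below the other nuclei for neurons and above them for microglia. The summed level of 9 GABAergic markers was 115 to 149 CPM against 192 in the other nuclei, with Dlx1 at 0 counts. The 8 pyramidal markers summed to 849 to 890 against 1525, and the 5 granule neuron markers to 290 to 523 against 786. The 6 astrocyte markers summed to 25.3 to 70.5 CPM against 92.3, and the 4 of oligodendrocyte precursors to 45.7 to 73.7 against 51.9. The 5 microglial markers summed to 234, 288, 201 and 173 CPM against 145, higher in all 4 libraries, and to 843 in droplets under 100 UMIs. Endothelial and mural markers summed to at most 20.7, with Cldn5 and Col1a2 at 0. Of the 4 markers of choroid plexus and ependyma Folr1, Foxj1 and Ccdc153 were at 0, and Ttr gave up to 18.4 CPM. The 6 oligodendrocyte markers stood apart in 1 library, at 953 CPM in Control replicate 2 and 145 to 210 in the other 3, against 592 in the other nuclei.

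Variation among the nuclei was described in the 275 of lower depth, each thinned to 3000 UMIs. Of 1091 genes with a mean of at least 0.5 UMIs, 949 had a Fano factor (variance over mean, 1 for pure counting) under 2, with a median of 1.29. Nrxn3 varied most, with a Fano factor of 22.3, and 10 nuclei held 50.4% of its UMIs. Nkain2 followed at 11.1 and Galntl6 at 9.46. Genes seen in nearly every nucleus were less concentrated: Kcnip4 had a Fano factor of 8.98 with 12.7% of its UMIs in 10 nuclei, and Reln one of 5.01 with 7.47%. Cntnap2 was at 7.23, Kcnb2 at 5.62 and Robo2 at 4.57.

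The first comparison of the genotypes asked whether Kat6a-cKO hippocampi held another share of Cajal-Retzius nuclei. They made up 0.809% and 0.764% of Control barcodes with at least 3000 UMIs, against 0.757% and 0.957% for Kat6a-cKO. Kat6a-cKO replicate 2 was the highest and Kat6a-cKO replicate 1 the lowest, so the groups overlapped. The means were 0.787% ± 0.0317 (SD, n = 2) and 0.857% ± 0.142. The difference of 0.0702 percentage points had a two-sided exact permutation p of 1, and 2 libraries against 2 cannot give less than 0.333. It turned to −0.0302 without Kat6a-cKO replicate 2. With a minimum of 5000 UMIs it was −0.106, on 36 and 28 Control nuclei against 24 and 23.

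Depth is given as a description, since the rule sets a minimum of UMIs. The median UMI count of Cajal-Retzius nuclei was lower in both Kat6a-cKO libraries than in both Control libraries, with a difference of −489.5 UMIs between the means. Among nuclei with at least 5000 UMIs the difference turned to 241. Control nuclei had a median of 2270.5 and 2218 genes, and Kat6a-cKO nuclei 2042 and 2038. The medians of the Reln-positive interneurons were 17961 and 17848 UMIs in Control against 16601 and 17807.5 in Kat6a-cKO, where replicate 2 was close to Control. In the other nuclei the medians overlapped between genotypes, at 13057 and 13367 UMIs for Control against 12520.5 and 13512.

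**Figure D4:**
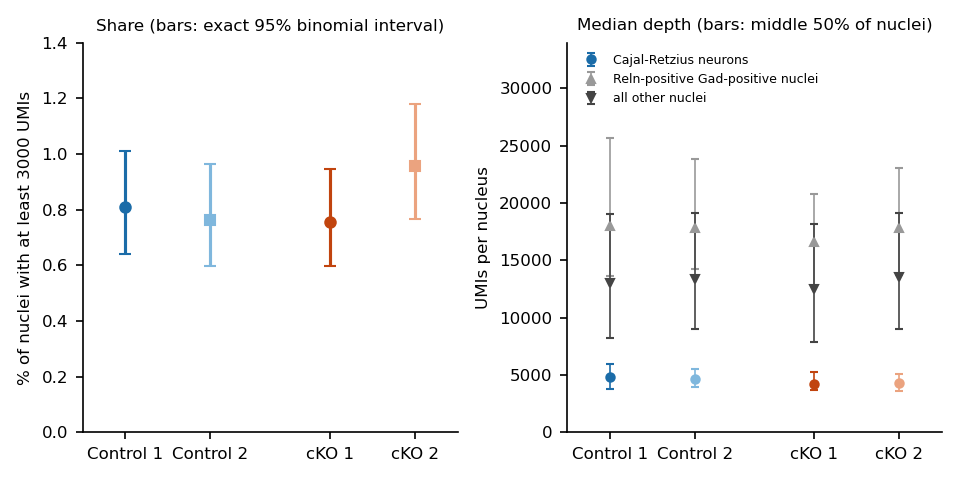
Left, the share of Cajal-Retzius nuclei per library with its exact 95% binomial interval, from 0.757% to 0.957%, with overlapping intervals. Right, the median UMI count with the middle 50% of nuclei for Cajal-Retzius nuclei, Reln-positive interneurons and all other nuclei, where the medians of Cajal-Retzius nuclei lie below 5000 in all 4 libraries.

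The second comparison asked which genes differ by genotype within these nuclei. The edgeR quasi-likelihood test on library sums called 0 of 6863 genes (0%) at an adjusted p under 0.05, and DESeq2 also called 0, with 80 at an unadjusted p under 0.05. The count of 0 depended on the fit: edgeR called 53 genes without the filter on low counts, 44 with the replicate number as a block and 12 to 59 with 1 library left out. At an unadjusted p under 0.05 edgeR had 438 genes (6.38%), 188 higher (2.74%) and 250 lower (3.64%) in Kat6a-cKO. On simulated sums of this depth the test recovered 61 of 189 genes with a true log2 change of 1, and 168 of 184 with a change of 2. Of those at 100 CPM or more, 42 of 65 and 60 of 60 were called. Each simulated gene had the spread of the fitted trend at its level, with no spread of its own, so recovery may be overstated. Recovery of genes with much of their count in 1 nucleus was not tested. In the measured sums St18, with a log2 difference of −2.66, and Col19a1, with 4.51, were not called (edgeR adjusted p 0.256 for each).

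Kat6a itself was read first as the targeted gene. It had 73 and 63 counts in Control and 50 and 59 in Kat6a-cKO, or 139 and 145 against 104 and 115 CPM. The groups did not overlap, with Kat6a-cKO lower, as for 18.1% of all genes tested. Its difference was −0.37 ± 0.22 on the log2 scale (SE, 2 libraries against 2), with an unadjusted edgeR p of 0.117 and an adjusted p of 0.853. The count covers the whole gene and does not show which exons were read, so it is no check of the deletion. The deposited entry for cre had 0 counts in these nuclei in all 4 libraries, where 3 counts would be 5.83 to 6.22 CPM in Kat6a-cKO. The other nuclei of Kat6a-cKO were at 1.21 and 1.24 CPM, under that limit, so presence at that level was not detectable here. Neurod6, the gene at the Cre locus, had 15, 8, 8 and 8 counts, with 28.6, 18.4, 16.6 and 15.6 CPM, and did not pass the filter on low counts. Rspo2, the secreted Wnt amplifier in the study's title, had 8, 9, 9 and 6 counts and was below that filter too.

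Among the leading genes outside the rule, the log2 fold change was 0.06 ± 0.18 (SE) for Ebf3 (adjusted p 0.98), 0.05 ± 0.13 for Dach1 (adjusted p 0.98), −0.20 ± 0.21 for Gm27199 (adjusted p 0.95) and −0.09 ± 0.24 for Slc17a6 (adjusted p 0.98), all by edgeR. Of the 26 leading genes outside the rule Cdh4 and E130114P18Rik had an unadjusted p under 0.05, near the 6.38% of all genes. Their differences were 0.33 ± 0.15 (edgeR p 0.0383, adjusted p 0.727) and 0.56 ± 0.20 (p 0.0149, adjusted p 0.636). Cdh4 was at 1094 and 925 CPM in the Control libraries, below 1160 and 1385 in the others.

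Since 0 genes passed, the 5 genes of smallest unadjusted p in each direction whose groups did not overlap are given as values. Such separation is common at this size, 17.3% of genes higher and 18.1% lower in Kat6a-cKO. All 10 had an edgeR adjusted p of 0.256. The 5 higher were Ptpru, Col19a1, Npas3, Etl4 and Cntn6. Ptpru, a receptor tyrosine phosphatase gene, was at 26.7 and 20.7 CPM in Control and 85 and 72 in Kat6a-cKO, a log2 fold change of 1.70 ± 0.34. Cntn6, a contactin that mediates adhesion, was at 34.3 and 34.5 against 116 and 75.8 (1.47 ± 0.32), and Npas3, a transcription factor gene, at 24.8 and 18.4 against 68.4 and 73.9 (1.70 ± 0.35). Etl4 was at 93.3 and 108 against 551 and 169 (1.85 ± 0.40), and its log2 difference was 0.74 without Kat6a-cKO replicate 1 (edgeR adjusted p 0.707). The value of Npas3 depended on which nuclei were kept: its log2 difference was 0.82 with Trp73 required (edgeR adjusted p 0.941), 0.85 with 3 marker genes required (0.877) and 3.04 without Scrublet doublets (0.075). That of Cntn6 was 0.88 without Scrublet doublets (edgeR adjusted p 0.839).

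These 4 genes had much of their count in the deep nuclei: 62.4% for Ptpru, 51.6% for Cntn6, 68.5% for Npas3 and 83.5% for Etl4. A single nucleus held 25.8% of Cntn6 and 29.3% of Npas3. Col19a1 had 1 and 0 counts in Control and 18 and 11 in Kat6a-cKO, with 46.7% of them in 1 nucleus, and a ratio of 27.9 with an exact 95% counting interval of 4.63 to 1140. Without the 36 deep nuclei the log2 difference of Cntn6 was 0.46 and that of Etl4 1.60, and the other 3 genes did not pass the filter on low counts. In that fit 0 of 5374 genes passed, and 324 had an unadjusted edgeR p under 0.05.

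The 5 lower genes were CT010467.1, Mal, Actb, Pnmal2 and St18. CT010467.1, annotated as ribosomal RNA, was at 5386 and 5506 CPM in Control and 3881 and 3870 in Kat6a-cKO, a log2 fold change of −0.48 ± 0.11. Actb, the cytoskeletal actin gene, was at 331 and 495 against 166 and 241 (−1.01 ± 0.22). Both were also lower in the other nuclei of Kat6a-cKO, by −0.54 ± 0.06 and −0.74 ± 0.15 (edgeR adjusted p 0.0696 and 0.162), and Actb was at 2713 and 2621 CPM against 1700 and 2040 in droplets under 100 UMIs. Pnmal2 was at 61 and 62.2 CPM against 18.7 and 21.4 (−1.60 ± 0.36). Without the deep nuclei the log2 differences were −0.44 for CT010467.1, −0.91 for Actb and −1.80 for Pnmal2.

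Mal and St18 are known genes of myelin-forming cells, though St18 UMIs here did not lie only in nuclei with myelin RNA. Mal, a proteolipid gene of myelin, was at 40 and 80.6 CPM in Control and 12.4 and 15.6 in Kat6a-cKO (−2.05 ± 0.45). St18, an oligodendrocyte transcription factor gene, was at 57.2 and 327 against 18.7 and 38.9 (−2.66 ± 0.60), and 1 nucleus held 30.8% of its counts. Without Control replicate 2 the log2 difference of St18 was −0.996 (edgeR adjusted p 0.547). Mbp, a myelin protein gene, was at 28.6 and 115 CPM against 16.6 and 36.9. Among Control replicate 2 nuclei outside the deep ones, the highest St18 values were 62, 24, 18 and 13 UMIs. The same nuclei held 11, 12, 7 and 6 Mbp UMIs. Control replicate 2 was the highest library for all 3 genes, as it was for the summed oligodendrocyte markers. Of these markers 3 were tested, and all 3, Mbp and St18 among them, were lower in Kat6a-cKO at an unadjusted edgeR p under 0.05. Of 14 tested markers of the other cells 0 were higher at that level and 2 were lower, against 2.74% and 3.64% over all genes. These were Stxbp6, 1 of 3 granule neuron markers (−0.63 ± 0.26), and the 1 microglial marker tested. The part of oligodendrocyte RNA in that library in these differences was not tested.

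**Figure D5:**
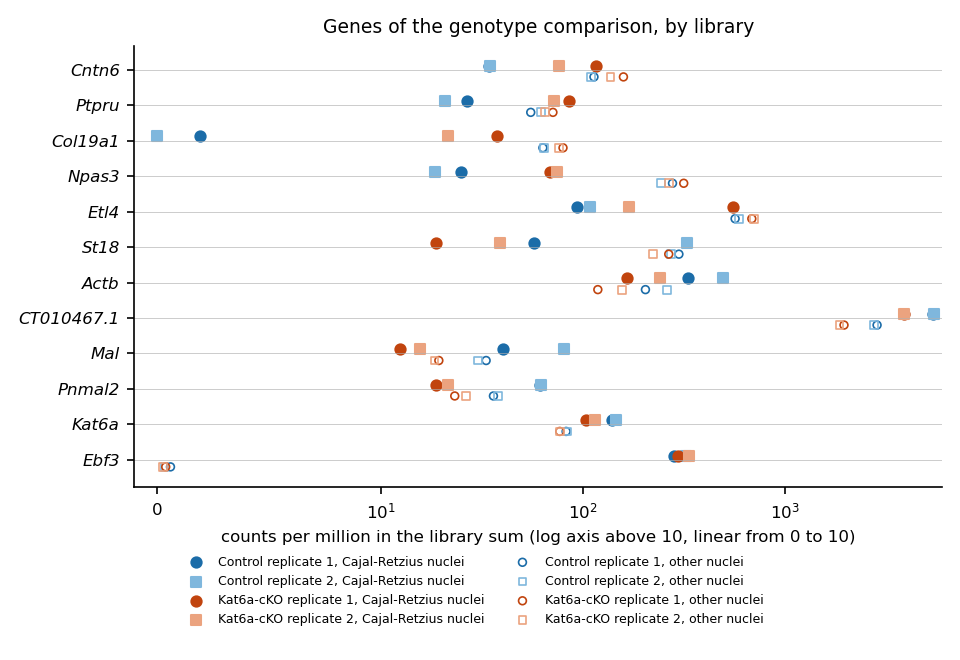
CPM by library, on an axis that is logarithmic above 10, for the 5 genes higher and 5 lower of smallest unadjusted p, with Kat6a and Ebf3, in Cajal-Retzius nuclei (filled) and other nuclei (open). The 10 genes and Kat6a separate by genotype, Ebf3 does not, and St18 has 1 Control library at 327 and the other at 57.2.

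By list, 0 genes passed the threshold over all genes in any of them. The counts at an unadjusted p under 0.05 stand against 2.74% higher and 3.64% lower over all genes, and 1 of 26 channel genes, for example, is near that share. Among 12 tested Cajal-Retzius genes outside the rule 0 had an unadjusted edgeR p under 0.05, with a median log2 fold change of −0.12 against −0.0019 over all genes. The same held for 9 reelin pathway genes (median −0.05), 13 Wnt and R-spondin genes (0.01), 5 KAT6A complex genes (−0.12) and 3 chemokine genes (−0.62). Of 5 transporter genes 2 were lower at that level, Slc12a5 at −0.85 ± 0.35 and Slc12a2 at −0.83 ± 0.39. Slc12a2 was at 38.1 and 82.9 CPM in Control and 31.1 and 35 in Kat6a-cKO, again with Control replicate 2 highest.

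Against the same 2.74% higher and 3.64% lower over all genes, of 20 glutamate receptor genes 3 were higher at the unadjusted level (Grik1, Grm7 and Grm8) and 0 lower, with a median of 0.01, and of 13 GABA and glycine receptor genes 2 were higher (Gabrg1 and Gabrg3) and 0 lower, with a median of −0.25. Of 26 channel genes 1 was higher, Cacna1b at 309 and 288 CPM against 429 and 368 (0.42 ± 0.18), and 0 were lower. Of 32 adhesion genes 5 were higher (Lrrtm4, Cntn4, Cntn6, Cdh4 and Unc5d) and 2 lower (Cntnap5b and Epha7). Grm7 was at 1921 CPM in the deep nuclei against 166 in the rest, and Grm8 at 157 against 39.9. Lrrtm4 was at 4019 against 519 and Cntn4 at 286 against 20.3. Grik1, Cntn6 and Unc5d were also higher in the deep nuclei, as were Cntnap5b and Epha7, while Gabrg1, Gabrg3, Cacna1b and Cdh4 were lower. The list counts by genotype without the deep nuclei are not given here. Of 6 cell death genes 1 was higher, the survival gene Bcl2 at 30.5 and 11.5 CPM against 53.9 and 40.8. Of 12 RNA quality genes 1 was higher (Snhg11) and 4 lower (mt-Cytb, Actb, Fth1 and Tmsb4x), against 2.74% higher and 3.64% lower over all genes, with a median of −0.23. Of the immediate early genes 1 was tested and did not reach an unadjusted p under 0.05.

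The last comparison asked whether the genotype difference in Cajal-Retzius nuclei differed from that in all other nuclei, by the interaction of class and genotype with the library as a block in edgeR. It called 23 of 20358 genes (0.113%), 14 with the higher fold change in Cajal-Retzius nuclei and 9 with the lower. St18 had the smallest adjusted p, 8.47e-10, with an interaction of −2.28 ± 0.30, on 30 and 142 Control counts against 9 and 20. Etl4 followed at 1.46 ± 0.23 (adjusted p 2.17e-06), with Sgcz at 1.54 and Il1rapl2 at 1.70. In the edgeR fit of Cajal-Retzius nuclei alone St18 and Etl4 had larger SEs and an adjusted p of 0.256 each. The interaction fit used 1 spread per gene for the sums of both classes, although Cajal-Retzius sums came from far fewer nuclei. Its SEs and p-values therefore do not measure the spread between Cajal-Retzius sums alone, and the calls may be too many.

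For 19 of the 23 genes over 50% of the counts lay in the 36 deep nuclei. Il1rapl2, a synaptic adhesion gene, had 26 and 24 counts in Control and 207 and 27 in Kat6a-cKO, with 92.3% of the counts in deep nuclei and 37.3% in 1 nucleus. Sgcz, a sarcoglycan gene, had 33 and 37 against 252 and 49 counts. In both the excess lay in Kat6a-cKO replicate 1 and the other 3 libraries were alike. Without the deep nuclei 6 genes passed, 4 of them among the 23: St18, Klhl1, Enpp2 and Slc25a13. Of the 23 genes 16 kept their sign, and Sgcz, Cntn4, Ptprt, Npas3, Grm8, Thrb and Mlip turned. Klhl1, a kelch family gene, was spread over more nuclei, with 4.42% of its counts in the top nucleus. It had 95 and 63 counts in Control and 82 and 54 in Kat6a-cKO, and an interaction of −0.95 (adjusted p 0.02). In these nuclei its levels overlapped, at 181 and 145 CPM for Control against 170 and 105, with a log2 difference of −0.25 ± 0.26 (edgeR adjusted p 0.95). In the other nuclei it was at 21.6 and 18.6 CPM against 33.8 and 32, a log2 difference of 0.73 ± 0.10 (edgeR adjusted p 0.0877), so most of the interaction lay there. With Kat6a-cKO replicate 1 left out, 9 genes passed.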

How the data were processed

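Nuclei were isolated from hippocampus and run on the 10x Genomics Chromium kit, per the labels' protocols. The authors deposited raw counts per gene and barcode, empty droplets included. The submitters' processing notes name mm10 and Seurat 4.0.1. The aligner, the annotation release and the counting strand are not given in the sources used here. Of 55422 gene IDs 55154 had a symbol, and positions are given for the 54587 that match GENCODE M21 by ID and version.

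The members and gene lists were chosen with earlier results of these data known. Within each library the counts of all nuclei meeting the rule were added up. CPM values are counts scaled to a sum of 1000000. Ratios to other nuclei add 5 CPM. The level minimum for list counts was chosen after seeing the data. Genotypes were compared with edgeR 4.0.16 in R 4.3.3 (quasi-likelihood test, TMM, filterByExpr, Benjamini-Hochberg over all genes tested, threshold 0.05), and DESeq2 1.42.0 was an alternative. A positive log2 fold change means higher in Kat6a-cKO. The procedure was tested on simulated counts with 200 changed genes and the spread of the fitted trend.

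Doublets called by Scrublet in scanpy 1.11.5 (expected rate 0.06, 4.39% to 5.2% of barcodes called) were kept in the main analysis. Free RNA was not subtracted. Named genes were the rule genes, the 30 leading genes, Kat6a, Rspo2, Neurod6, the cre entry, the genes past the threshold, and, as fewer than 10 passed, 5 per direction by unadjusted p, with list members by level or known role. Some genes of these lists are not reported here.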

Additional observations from a re-analysis of the deposited data

Results flagged for a closer look

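The genotype difference in Cajal-Retzius nuclei differed from that in all other nuclei for 23 genes, by the interaction term in edgeR. Values are differences of log2 fold changes. The fold change was higher in Cajal-Retzius nuclei for Etl4 (1.46), Sgcz (1.54), Il1rapl2 (1.70), Vwc2l (3.57), Col19a1 (4.53), 4930555F03Rik (3.22), Cntn4 (1.20), Ptprt (1.21), Npas3 (1.57), A230006K03Rik (1.10), Grm8 (1.32), Ptpru (1.51), Sox6 (2.67) and Thrb (1.16). It was lower for St18 (−2.28), Homer1 (−1.34), Zfp804a (−1.48), Mlip (−1.55), Rgs6 (−1.50), Enpp2 (−1.61), Klhl1 (−0.95), Slc25a13 (−4.38) and R3hdm1 (−0.79). Without the 36 deep nuclei the sign turned for Sgcz (−0.26), Cntn4 (−1.54), Ptprt (−0.33), Npas3 (−0.69), Grm8 (−1.15), Thrb (−0.06) and Mlip (1.89), each with an adjusted p of 1 in edgeR.

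Several rest on few counts or 1 library. Vwc2l had 3 and 0 counts in Control and 48 and 2 in Kat6a-cKO, with 84.9% in 1 nucleus, and 4930555F03Rik had 3 and 0 against 2 and 30. Sox6 had 3 and 1 counts against 25 and 5. Slc25a13 had 0 and 20 counts in Control against 0 and 1, nearly all in Control replicate 2. Mlip had 132 and 14 counts in Control and 19 and 22 in Kat6a-cKO, with 63.6% in 1 nucleus. Homer1 had 259 and 54 against 55 and 68, and R3hdm1 644 and 272 against 257 and 286, with Control replicate 1 highest in each. Fitted values of genes with so few counts depend on the fit and are no bound. Enpp2, which oligodendrocytes also express, had 25 and 40 counts in Control and 5 and 14 in Kat6a-cKO, with 15.5% in the deep nuclei.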

How the results depend on the processing

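The 0 genes called for genotype stayed 0 under RLE size factors, DESeq2, a Reln minimum of 3 or 10, 3 marker genes, no Gad1 or Gad2 UMI, a minimum of 5000 or 1500 UMIs (the last added after seeing the data) and without the deep nuclei. They became 53 without the filter on low counts, 2 with Trp73 required (Cntn4 and Tenm3, both higher) and 1 without Scrublet doublets (Tenm3). The replicate block gave 44, with all 10 named genes among them (adjusted p 1.56e-06 to 0.0335), and 13 without the deep nuclei, an alternative added after seeing the data. The labels do not say that replicate numbers pair libraries, so the pairing was not taken as given. The deviations of same-numbered libraries correlated at 0.1 over 6863 genes and 0.179 over the 1913 of at least 50 counts a library. Leaving out 1 library gave 12 (without Kat6a-cKO replicate 1) to 59 (without Kat6a-cKO replicate 2), 31 without Control replicate 2 and 55 without Control replicate 1, each with a lone library assumed to vary like the other group. The cause of these moves was not tested. Of the 10 named genes and Kat6a, 0 changed direction under any alternative that fitted them. The 10 were chosen with groups that did not overlap, and those of Kat6a did not overlap either. A kept direction was thus largely fixed beforehand and is no separate support. With 1 library left out the log2 difference of St18 ran from −3.45 to −0.996 and that of Etl4 from 0.74 to 2.49. Kat6a stayed above the threshold throughout (lowest adjusted p 0.749, in edgeR).

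The interaction called 21 without the filter, 23 with RLE size factors, 31 with Trp73 required, 6 without the deep nuclei (0 higher, 6 lower, added after seeing the data) and 9 (without Kat6a-cKO replicate 1) to 24 when 1 library was left out. The difference in share ran from −0.0302 (without Kat6a-cKO replicate 2) to 0.171 percentage points with 1 library left out, and was −0.106 at 5000 UMIs. The difference in median depth became 241 at 5000 UMIs. Depth limits the single-gene values: sums of 434431 to 524910 counts left 6863 genes to test.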
